A study of Mus musculus with 6 samples.

Results

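The respiratory chain and ATP synthase are built from genes of 2 genomes, and their transcripts were followed here in fetal liver burst-forming unit erythroid cells (BFU-E), the earliest progenitors restricted to the red cell lineage. Members were taken by gene symbol: the Nduf genes of complex I, Sdha to Sdhd of complex II, the Uqcr genes and Cyc1 of complex III, Cox4 to Cox8 genes of complex IV, the Atp5 genes of complex V, and the protein genes of mitochondrial DNA. Of 118 symbols found, 7 pseudogene symbols and 8 genes with fewer than 100 counts summed over the 6 libraries were left out. The remaining 103 of 37620 genes comprised 91 nuclear and 12 mitochondrially encoded genes, and all 103 passed the filter on low counts, Ndufa4l2 and Cox7a1 only through the treated libraries in which they are high. By complex, the nuclear genes were 7 core and 30 accessory subunits of complex I, 8 complex I assembly factors, 4 genes of complex II, 9 of complex III, 16 of complex IV and 17 of complex V. The 8 assembly factors carry Nduf symbols but are not subunits, and Ndufa4 and Ndufa4l2 were placed with complex IV, where the protein NDUFA4 is known to sit. The mitochondrial genes were 6 of complex I, 1 of complex III, 3 of complex IV and 2 of complex V. The genes under the minimum were Cox4i2 with 19 counts, Cox6a2 with 22, mt-Nd4l with 18, Ndufs6b with 7, Ndufa11b with 2, Cox7b2 with 1, and Cox8b and Cox8c with 0.

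The cells came from livers of 129/SvImJ E14.5 embryos. Per the labels they were depleted of lineage-positive, Sca-1, CD16/32, CD41 and CD34 positive cells, then sorted for c-kit and for the lowest 10% of CD71. All 3 groups share a serum-free medium with 100 ng/mL stem cell factor, 40 ng/mL IGF-1 and 2 U/mL erythropoietin: untreated cells, cells with 100 nM dexamethasone (Dex), a synthetic glucocorticoid, and cells with 100 nM Dex plus 10 µM GW7647, an agonist of the nuclear receptor PPARα. Each group had 2 libraries. The labels state 12 h of treatment while column headers of 1 deposited table carry 36 h, and the labels do not say whether untreated cells were kept in culture for that time. GW7647 alone was not among the groups. The labels do not say that replicates came from separate cultures or animals, so p-values measure only the spread between these libraries, which may be technical.

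In the inner mitochondrial membrane, complex I takes electrons from NADH and complex II from succinate. Complex III passes them to cytochrome c, complex IV hands them to oxygen, and complexes I, III and IV pump protons that ATP synthase, complex V, uses to make ATP. Nuclear genes for these complexes are transcribed one by one, whereas mitochondrial DNA is transcribed as long precursors that are cut into mature RNAs. Erythroid progenitors depend on these mitochondria for heme synthesis as well as for ATP, and lose them before the red cell is mature.

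Stretches upstream of 5 nuclear members are shown because these genes carry the findings below: Ndufb2, Ndufb6, Ndufaf3 and Cox7a1 changed most among members with an entry, and Cox6a1 is a subunit gene without a called change. Each is the 250 bases before the RefSeq start in build GRCm38.p6, written 5′ to 3′ in the direction of the gene, with capitals on any match to 3 motifs of respiratory chain regulators: the NRF1 core GCATGCGC, the GABPA core CCGGAAG and the YY1 core AAGATGGC, on either strand.
Cox6a1, chr5:115348959-115349208, strand minus: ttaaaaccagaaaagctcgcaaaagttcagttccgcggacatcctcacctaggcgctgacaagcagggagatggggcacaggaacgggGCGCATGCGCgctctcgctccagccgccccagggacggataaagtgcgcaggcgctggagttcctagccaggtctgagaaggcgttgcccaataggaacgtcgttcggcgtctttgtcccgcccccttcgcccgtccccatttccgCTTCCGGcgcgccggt
Ndufb6, chr4:40279422-40279671, strand minus: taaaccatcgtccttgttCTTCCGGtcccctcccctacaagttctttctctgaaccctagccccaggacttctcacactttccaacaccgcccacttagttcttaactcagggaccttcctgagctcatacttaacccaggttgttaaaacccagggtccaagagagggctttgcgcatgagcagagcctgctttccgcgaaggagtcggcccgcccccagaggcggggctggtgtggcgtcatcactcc
Ndufb2, chr6:39592315-39592564, strand plus: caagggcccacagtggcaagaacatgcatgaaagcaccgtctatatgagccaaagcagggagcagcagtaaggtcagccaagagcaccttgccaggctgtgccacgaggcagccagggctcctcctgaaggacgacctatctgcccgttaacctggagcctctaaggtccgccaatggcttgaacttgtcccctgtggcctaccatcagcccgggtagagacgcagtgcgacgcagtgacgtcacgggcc
Ndufaf3, chr9:108567437-108567686, strand minus: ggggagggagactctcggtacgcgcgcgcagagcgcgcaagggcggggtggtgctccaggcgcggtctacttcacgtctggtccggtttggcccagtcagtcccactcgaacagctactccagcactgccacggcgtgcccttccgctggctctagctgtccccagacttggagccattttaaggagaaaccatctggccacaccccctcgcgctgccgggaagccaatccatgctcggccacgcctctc
Cox7a1, chr7:30183921-30184170, strand plus: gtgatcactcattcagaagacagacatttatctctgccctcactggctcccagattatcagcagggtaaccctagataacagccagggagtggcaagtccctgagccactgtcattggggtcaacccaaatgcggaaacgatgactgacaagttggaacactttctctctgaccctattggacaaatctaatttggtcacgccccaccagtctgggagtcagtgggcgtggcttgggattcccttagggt
Cox6a1 held the NRF1 core on both strands, in overlapping matches, and the GABPA core on the opposite strand. Ndufb6 held the GABPA core on the opposite strand, and the stretches of Ndufb2, Ndufaf3 and Cox7a1 held none of these letters. The RefSeq table had windows for 72 of the 91 nuclear members, 77 windows in all, each running from 250 bases before to 50 after a start. The NRF1 core was in 15.6% of these windows against 2.71% of the 32851 windows in the table, the GABPA core in 23.4% against 8.86%, and the YY1 core in 12.99% against 2.75%. Any of the 3 was in 42.9% of member windows and 13.3% of all windows. The GABPA and YY1 cores can overlap by the letters AAG. With Dex, 6 of the 33 members with any of the motifs were called higher and 4 lower, and 10 of the 39 members without them were called higher and 7 lower, where 25.5% of all genes tested were called higher and 26% lower. Cox7a1, which had to differ from untreated cells to be counted, is among these higher calls, and its call carries no test. A match describes letters only, and the absence of one says nothing of whether the factor binds.

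Library totals ran from 35970286 to 54174801 counts. The Dex libraries differed most from each other, with a chi-square per degree of freedom of 20.65 against 8.55 between untreated libraries and 3.87 between libraries with both drugs. This value grows with depth as well as with spread, and Dex replicate 1 was the deepest library. Erythroid identity was checked on 9 markers, all detected, among them Gata1 at 11483 and 12377 normalised counts in untreated cells and Epor at 6929 and 7753. Their summed level, most of it the globin genes Hbb-bs and Hba-a1, ran from 1889540 to 1995771 in untreated libraries. It ran from 881081 to 910152 with Dex and from 887901 to 895458 with both drugs. With Dex 6 of the 9 were called lower, where 26% of all genes tested were, and 1 higher. The marker called higher was Kit, whose protein was used in the sort, from 4270 and 4311 to 12682 and 12630. Globin genes took 6.48% and 7.15% of counts in untreated libraries and between 2.75% and 3.12% in treated ones. Of the 6 megakaryocyte markers 5 were called lower with Dex, and of the 6 granulocyte markers 5, 83.3% of each list beside 26% of all genes. The 6 megakaryocyte markers summed to 33681 and 35686 normalised counts in untreated libraries, 16574 and 14840 with Dex, and 10580 and 10302 with both drugs, and the 6 granulocyte markers to 13289 and 14593, then 6489 and 6149, then 3881 and 3951. Mast cell and basophil markers summed to 6033 and 6043, then 9930 and 9615 with Dex, where Hdc was the 1 marker called higher, and stood at 5712 and 5613 with both drugs, while the other 4 tested markers of that list fell. The 4 endothelial and stromal markers, of which only Pecam1 could be tested, went from sums of 603.9 and 601.3 to 228.4 and 254.1 with Dex and 139.9 and 134.6 with both drugs. These sums were almost all Pecam1, at 596.6 and 587.4 in untreated libraries. Macrophage markers summed to between 293.3 and 410.5 with C1qa at 0 counts in every library, lymphoid markers to between 142.6 and 414.4, almost all Ptprc, and hepatoblast markers to between 17.3 and 196, with Alb at 21 counts and Ttr at 1 count over all libraries. The other hepatoblast markers were higher with Dex, Apoa1 from 9.78 and 4.63 to 158 and 153 normalised counts and Afp from 11.003 and 9.25 to 29.3 and 38.4. Both were near the floor in untreated cells and passed the low-count filter only with the treated libraries, so these differences are given with no test. In these bulk samples fewer cells of a type and less RNA per cell cannot be told apart, and the part of these shifts in the results below was not tested.

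The nuclear respiratory chain genes differed by small amounts. With Dex against untreated, 21 of 91 were called higher and 14 lower (edgeR quasi-likelihood test, Benjamini-Hochberg adjusted p under 0.05 over 14125 genes), 38.5% in all, where 51.6% of all genes tested were called, 25.5% higher and 26% lower. The median log2 difference of the 91 genes was 0.06 beside 0.01 for all genes, and 86 of the 91 differed by less than 0.5 on the log2 scale. Without Ndufa4l2 and Cox7a1, which had to differ to be counted, 19 of 89 were called higher and 14 lower, and Ndufaf3 was the 1 gene called at 2-fold or more, against 12.2% of all genes. The median standard error of a nuclear member was 0.06. Scaling by total counts in place of TMM shifted the median of all genes to 0.14 and gave 49 higher and 4 lower calls, so that at most 4 of the 14 falls passed under it. The nuclear median lay 0.05 above that of all genes under both scalings. The share of nuclear members called was then 58.2% beside 56.9% of all genes, and without a filter on low counts it was 53.8% beside 36% of all genes. The lower share of calls among nuclear members than among all genes was thus not seen under these alternatives, of which that without a filter tested 21735 genes. Nor was it seen without Dex replicate 2, a fit that leaves Dex replicate 1 alone in its group. It was seen by DESeq2 (35.2% beside 43.5%) and with a replicate block (34.1% beside 48.3%). It was also seen in a fit of the 4 libraries compared (29.7% beside 47.9%) and with TMM scaling without globin and mitochondrial genes (38.5% beside 51.4%).

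Dex plus GW7647 against untreated, which shares the untreated libraries with the first comparison, gave 22 higher and 5 lower calls among the 91 nuclear genes. Of all genes 49.7% were called, 24.7% higher and 25.1% lower, and the nuclear median was 0.07 beside 0.02 for all genes. Without Ndufa4l2 and Cox7a1 these were 20 higher and 5 lower of 89, with Ndufaf3 the 1 call of 2-fold or more, against 12.5% of all genes. Under total count scaling 45 were called higher and 4 lower. Higher calls fell to 14 without either library of both drugs, and lower calls rose to 8 without Dex replicate 1, to 11 without Dex replicate 2 and to 13 in a fit of the 4 libraries compared. Adding GW7647 to Dex left 2 of the 91 called, Cyc1 higher and Ndufa4l2 lower, where 9.73% of all genes were called, 2.15% higher and 7.58% lower. Neither reached 2-fold, against 1.54% of all genes called at that size. Both calls were lost without any 1 of the 4 libraries compared. Without Dex replicate 2 there were 2 higher and 3 lower calls, of other members, and 10 of the 91 had an unadjusted p under 0.05 in the full fit.

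**Figure D1:**
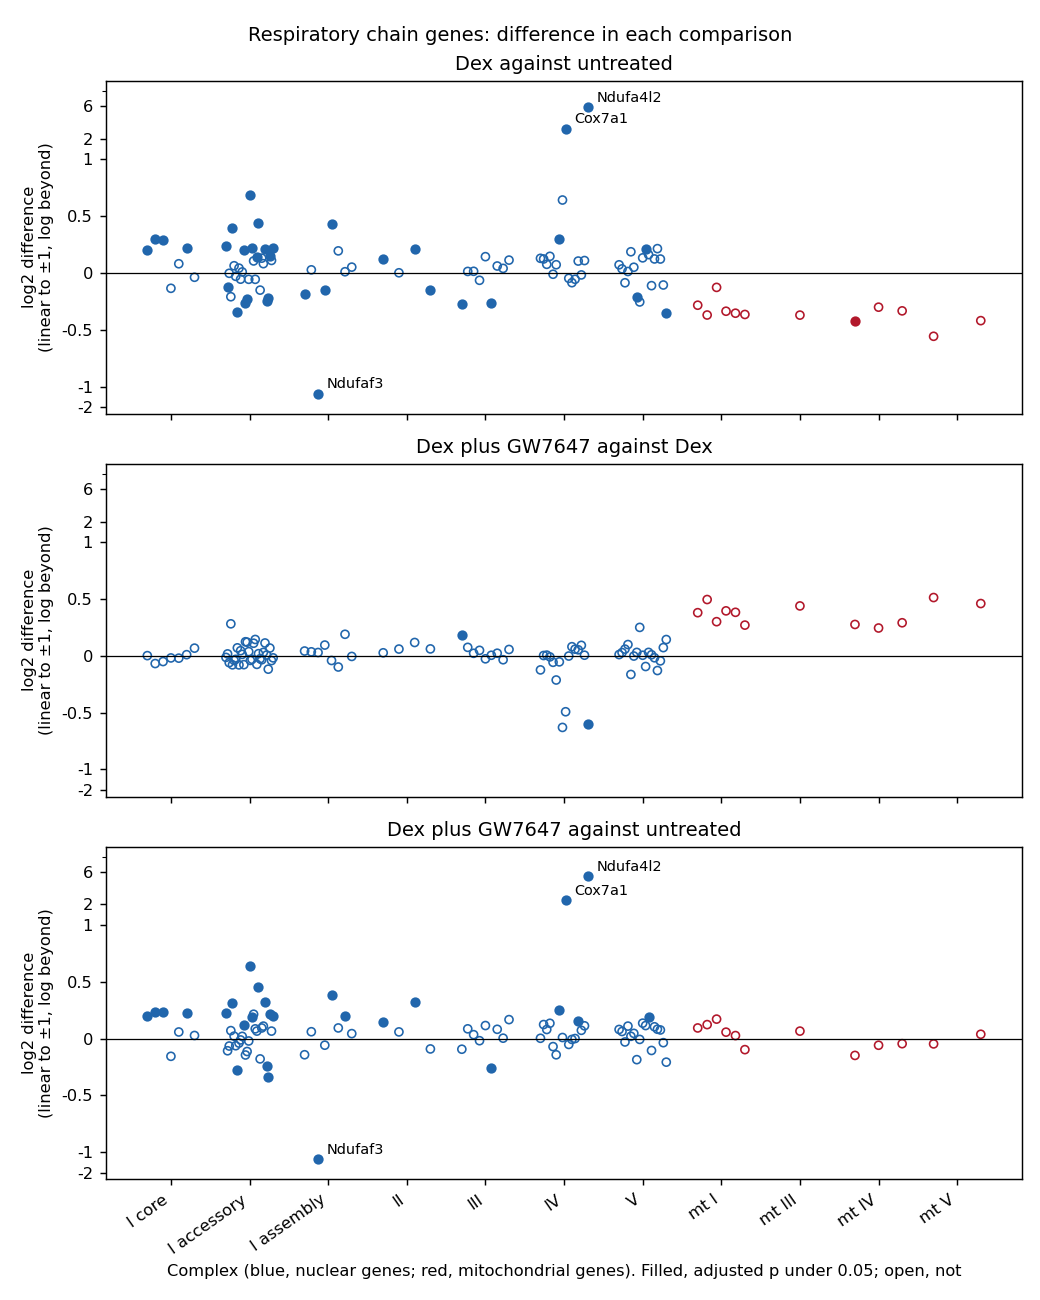
Log2 difference of each respiratory chain gene (vertical axis, linear between -1 and 1 and logarithmic beyond) by complex (horizontal axis), with 1 panel per comparison; blue points are nuclear and red points mitochondrial genes, filled where the adjusted p was under 0.05. Most points lie within 0.5 of 0, Ndufa4l2, Cox7a1 and Ndufaf3 stand apart in both comparisons with untreated cells, and the 12 mitochondrial genes lie below 0 with Dex and above 0 when GW7647 is added. Ndufa4l2 and Cox7a1 had to differ from untreated cells to be counted, so their filled points in those comparisons carry no test.

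Complex I has the most members. Of its 7 nuclear core subunits, which carry the flavin, the iron-sulfur clusters and the quinone site, 4 rose with Dex and 3 did not pass the test, with a median log2 difference of 0.20. The 57.1% called higher compares with 25.5% of all genes. Ndufs1, Ndufs3 and Ndufv1 were among those that rose. Ndufs3, a subunit of the matrix arm, went from 5385 and 5542 to 6964 and 6356 with Dex and stood at 6606 and 6251 with both drugs. It rose by 0.29 ± 0.06 (adjusted p = 0.00199) and 0.23 ± 0.06 (adjusted p = 0.00658), without overlap between treated and untreated libraries.

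Ndufs1, the largest subunit of the NADH-oxidising tip, measured 10575 and 10070 in untreated libraries, 11869 and 11881 with Dex, and 12050 and 11717 with both drugs. Its rise of 0.20 ± 0.05 in each comparison with untreated cells had an adjusted p of 0.0045 with Dex and 0.00458 with both drugs. Ndufv1, which binds NADH and the flavin, had 6978 and 7908 counts in untreated cells, 9233 and 8038 with Dex, and 8748 and 8642 with both drugs. The untreated replicates of Ndufv1 differed by more than its lower Dex library differed from the nearer of them, and the rise of 0.21 ± 0.07 (adjusted p = 0.0358) and 0.22 ± 0.08 (adjusted p = 0.0312) was less firm than those of Ndufs1 and Ndufs3. Its Dex call was lost without untreated replicate 1, Dex replicate 1 or either library of both drugs (adjusted p from 0.052 to 0.236; 8.51e-05 to 0.236 over its 12 alternatives), and in a fit of the 4 libraries compared (0.0553). With both drugs it was lost without untreated replicate 1 or either library of both drugs (0.0909 to 0.206; 5.36e-05 to 0.206 over its alternatives), and those of Ndufs1 and Ndufs3 were lost without replicate 1 of both drugs (adjusted p of 0.0611 and 0.074; over the alternatives 0.000187 to 0.0611 and 3.6e-05 to 0.074). The core subunits that did not pass had log2 differences between -0.14 and 0.08 with Dex. Kbtbd4, on the opposite strand from Ndufs3 with overlapping exons, also rose, from 2102 and 2083 to 2652 and 2643 counts with Dex. Since strand-specific counting is not stated, reads of such pairs cannot be told apart.

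The 30 accessory subunits of complex I, which wrap and stabilise the core, were split: 10 rose with Dex, 6 fell and 14 did not pass, with a median of 0.05. The 53.3% called was close to the 51.6% of all genes. With both drugs 9 rose, 3 fell and 18 did not pass, 40% called beside 49.7% of all genes. Ndufb2, a small subunit of the membrane arm, had the largest change. It measured 2517 and 2765 normalised counts in untreated cells, 4353 and 4123 with Dex, and 4163 and 4076 with both drugs. Every treated library was above both untreated ones. The rise was 1.60-fold with Dex (log2 0.68 ± 0.06, adjusted p = 5.77e-06) and 1.56-fold with both drugs (0.64 ± 0.06, adjusted p = 1.02e-05). Exons of Ndufb2 overlap Braf, a kinase gene on the opposite strand, whose counts moved the other way, from 3941 and 3832 to 2485 and 2794 with Dex.

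Among the other accessory subunits, Ndufb6 of the membrane arm rose from 2768 and 3012 to 3875 and 3964 with Dex and 3851 and 4091 with both drugs, a log2 difference of 0.44 ± 0.06 (adjusted p = 0.000117) and 0.46 ± 0.06. Ndufa13, also known as GRIM-19, rose from 3473 and 3220 to 4532 and 4247 with Dex, by 0.39 ± 0.06. The remaining risers with Dex were Ndufa1, Ndufa9, Ndufb3, Ndufb5, Ndufc1, Ndufs5 and Ndufv3, with log2 differences between 0.14 and 0.24. Ndufb2 apart, none of the 10 exceeded 0.44. Ndufa5, a subunit of the matrix arm, fell the most, from 3011 and 2957 to 2292 and 2413 with Dex and 2491 and 2444 with both drugs. Its treated libraries were all below both untreated ones (log2 -0.34 ± 0.05, adjusted p = 0.000238 with Dex; -0.27 ± 0.05, adjusted p = 0.00115 with both drugs). Ndufs4, a matrix arm subunit whose loss causes Leigh syndrome in people, measured 3295 and 3385, then 2883 and 2850, then 2722 and 2558. It was called lower by 0.22 ± 0.05 with Dex (log2 -0.22, adjusted p = 0.00415; adjusted p = 0.156 under total count scaling) and was the largest fall among accessory subunits with both drugs (log2 -0.34 ± 0.05, adjusted p = 0.000327). Ndufab1, the mitochondrial acyl carrier protein, Ndufa10, Ndufb10 and Ndufc2 also fell with Dex, with log2 differences between -0.27 and -0.12. Ndufb4 and its near-copy Ndufb4c can share reads, so their values are uncertain; neither passed the test.

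The 8 complex I assembly factors build the enzyme and then leave it. With Dex 1 of them was called higher and 3 lower, 50% in all beside 51.6% of all genes. The assembly factors held the 1 called change of 2-fold or more among nuclear members without Ndufa4l2 and Cox7a1. Ndufaf3, which acts early in building the matrix arm, stood at 503.7 and 488 normalised counts in untreated cells, 221.4 and 185.7 with Dex, and 226.6 and 187.8 with both drugs. The treated libraries all lay below both untreated ones, a fall to 0.412 of the untreated level with Dex (log2 -1.28 ± 0.12, adjusted p = 1.31e-05) and to 0.420 with both drugs (-1.25 ± 0.12, adjusted p = 1.93e-05). Its exons overlap Impdh2 on the opposite strand, which measured 4380 and 4178, then 4241 and 4610 with Dex, and was not called (adjusted p = 0.565). Ndufaf4, the partner of NDUFAF3, fell far less, from 3081 and 3040 to 2704 and 2808 with Dex (log2 -0.15), and Ndufaf1 fell by 0.18 on that scale. Ndufaf5, which hydroxylates the core subunit NDUFS7, rose from 723.7 and 729.6 to 967.6 and 989.2 with Dex and 917 and 986.2 with both drugs. The rise was 1.35-fold with Dex (log2 0.43 ± 0.06, adjusted p = 0.000354) and 1.31-fold with both drugs (adjusted p = 0.000814). Ndufaf7, a mitochondrial arginine methyltransferase, was called with both drugs only, at a log2 difference of 0.20 against 0.01 with Dex, and the difference between these was not called (adjusted p = 0.0794).

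**Figure D2:**
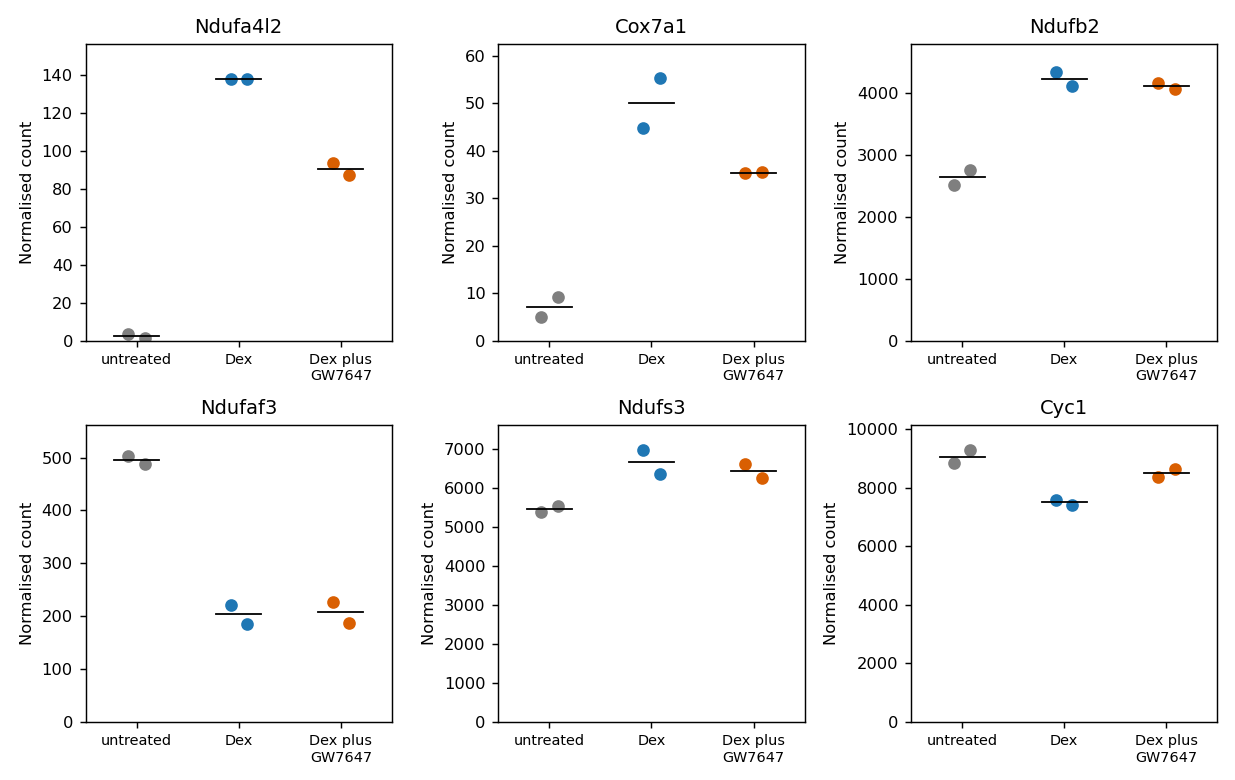
Normalised counts (vertical axes, from 0) of 6 nuclear genes in the 2 libraries of each group (horizontal axes); points are libraries and bars group means. Ndufa4l2, Cox7a1, Ndufb2 and Ndufs3 are higher and Ndufaf3 lower in every treated library than in both untreated ones, and Cyc1 is lowest with Dex alone.

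Complex II, the succinate dehydrogenase of the citric acid cycle, has 4 subunit genes, all nuclear. With Dex, Sdha and Sdhc rose, Sdhd fell and Sdhb did not pass the test, 75% called beside 51.6% of all genes. Sdhc, a membrane anchor, measured 5967 and 6561 normalised counts in untreated cells, 7344 and 7125 with Dex, and 7748 and 7944 with both drugs. It rose by 0.21 ± 0.05 with Dex (adjusted p = 0.00973) and 0.32 ± 0.05 with both drugs (adjusted p = 0.000769), without overlap of treated and untreated libraries. Sdhd, the other membrane anchor, went the other way with Dex, from 10998 and 11250 to 10072 and 9970 (log2 -0.15 ± 0.05, adjusted p = 0.0196), and stood at 10698 and 10197 with both drugs, where it did not pass. Sdha, which holds the flavin, measured 14864 and 14561, then 15907 and 16053, then 16156 and 16387. Its rise of 0.12 ± 0.04 (adjusted p = 0.0403) and 0.15 ± 0.04 (adjusted p = 0.0178) was among the smallest called. Sdhb, the iron-sulfur subunit, stayed between 6354 and 6950 in all 6 libraries.
The Dex call of Sdha was lost without any 1 of the 6 libraries (adjusted p from 0.0534 to 0.165; 0.000706 to 0.165 over its alternatives), by DESeq2 (0.0581) and in a fit of the 4 libraries compared (0.0943), and with both drugs without untreated replicate 2 or either library of both drugs (0.091 to 0.138; 0.000494 to 0.138 over its alternatives). That of Sdhc was lost without untreated replicate 1 (adjusted p = 0.0832; 0.000173 to 0.0832 over its alternatives) and that of Sdhd without untreated replicate 2 (0.0975), and with scaling by total counts (0.727; 0.00933 to 0.727 over its alternatives).

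Of the 9 nuclear genes of complex III, 2 fell with Dex and 7 did not pass. The 22.2% called lower was close to the 26% of all genes. Cyc1 encodes cytochrome c1, the heme-bearing subunit that reduces cytochrome c. It measured 8844 and 9300 normalised counts in untreated cells, 7581 and 7431 with Dex, and 8382 and 8633 with both drugs. The Dex libraries were lowest, those with both drugs intermediate and the untreated ones highest, without overlap. The fall with Dex was 0.827-fold (log2 -0.27 ± 0.05, adjusted p = 0.000839). Adding GW7647 gave a rise of 0.18 ± 0.05 over Dex (adjusted p = 0.0398), the only called rise among nuclear members there. With both drugs against untreated Cyc1 did not pass (-0.09 ± 0.05, adjusted p = 0.131). The call for GW7647 was lost without any 1 of the 4 libraries compared (adjusted p from 0.0595 to 0.323; 0.0159 to 0.323 over its alternatives) and under total count scaling (0.0512). Uqcrc2, a core protein facing the matrix, fell from 11920 and 11889 to 9480 and 10376 with Dex and stood at 9941 and 9971.5 with both drugs (log2 -0.26 ± 0.05 in both, adjusted p = 0.00191 and 0.00225). Uqcrc1, the other core protein, measured 13365 and 13753, then 15750 and 14179, then 14998 and 14378, and did not pass (0.14 ± 0.06 with Dex, adjusted p = 0.0607). Uqcrfs1, the Rieske iron-sulfur protein, and the small subunits Uqcr10, Uqcr11, Uqcrb, Uqcrh and Uqcrq had log2 differences between -0.07 and 0.11 with Dex.

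Complex IV held the 2 largest upward differences among all 103 members, both of genes at low levels. Ndufa4l2, a relative of Ndufa4 known as a target of the hypoxia factor HIF-1, was near 0 in untreated cells, with 3 and 1 counts, and had 179 and 147 counts with Dex and 104 and 74 with both drugs. These were 3.67 and 1.16 normalised counts in untreated cells, 138.1 and 137.8 with Dex, and 93.9 and 87.4 with both drugs. The ratio of pooled counts was 58.05 with Dex (95% exact counting interval 22.5 to 214.3) and 38.3 with both drugs (14.7 to 142.2), intervals that cover counting error only. Since Ndufa4l2 is counted only through the treated libraries, its difference from untreated cells is given with no test. Adding GW7647 lowered the gene to 0.659 of its level with Dex (log2 -0.60 ± 0.16, adjusted p = 0.0388), the only called fall among nuclear members in that comparison. That call was lost without any 1 of the 4 libraries compared (adjusted p from 0.072 to 0.217; 0.00559 to 0.233 over its alternatives) and in DESeq2 (0.233). Exons of Ndufa4l2 overlap Shmt2 on the opposite strand, which fell with Dex from 16408 and 16755 to 14696 and 12961 (log2 -0.26, adjusted p = 0.00437) and stood at 15817 and 15711 with both drugs.

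Cox7a1, the isoform of COX7A found mainly in heart and skeletal muscle, measured 4.89 and 9.25 normalised counts in untreated cells, 44.8 and 55.3 with Dex, and 35.2 and 35.4 with both drugs. The pooled ratio was 6.95 with Dex (95% interval 3.83 to 13.8) and 4.95 with both drugs (2.66 to 10.0), given with no test for the same reason. Every library with both drugs was below both Dex libraries, a difference that did not pass (log2 -0.49 ± 0.23, adjusted p = 0.226). Apart from Ndufa4l2 and Cox7a1, the called members of complex IV were Cox6c and Cox7c. Cox6c rose from 8173 and 8180 to 9872 and 10290 with Dex and 9864 and 9558 with both drugs (log2 0.30 ± 0.05, adjusted p = 0.000357 with Dex; 0.25 ± 0.05, adjusted p = 0.00136 with both). Cox6c overlaps Vps13b on the opposite strand, and its near-copy Cox6c2, at 383.9 to 966 counts, can share its reads. Cox7c was called with both drugs only, by 0.16 ± 0.06 (adjusted p = 0.0476), from 5834 and 6059 to 6282 and 6978.

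The isoform pairs of complex IV showed which forms these cells use. Levels between genes were compared as normalised counts per kilobase of a transcript. Ndufa4l2 reached 0.97% and 0.96% of the summed level of Ndufa4 and Ndufa4l2 with Dex, against 0.03% and 0.01% in untreated libraries. Cox7a1 made up 0.70% and 0.87% of the summed level of Cox7a1, Cox7a2 and Cox7a2l with Dex, against 0.07% and 0.14% in untreated cells, so that both genes stayed under 1% of their families. Cox7a2 held between 61.8% and 64.6% of that sum and Cox7a2l, also called SCAF1 and linked to supercomplexes, between 35.4% and 38.1%, in all 6 libraries. Cox6b2, known as the testis isoform of COX6B, held between 24.5% and 27.6% of the summed level of Cox6b1 and Cox6b2. It measured 2336 and 2662 normalised counts in untreated cells, 2662 and 2591 with Dex and 2235 and 2298 with both drugs, and the drop when GW7647 was added did not pass (log2 -0.21 ± 0.06, adjusted p = 0.0648). The common forms did not pass in any comparison. They were Cox4i1 at 16321 to 19155 normalised counts, Cox6a1 at 9737 to 12805, Cox6b1 at 8867 to 9561, Cox7a2 at 6523 to 7196, Cox7a2l at 6177 to 6840, Cox8a at 11513 to 14079 and Ndufa4 at 8394 to 9317. The muscle and lung forms Cox4i2, Cox6a2 and Cox8b had 19, 22 and 0 counts in all 6 libraries.

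Complex V, the ATP synthase, changed little: 1 of its 17 nuclear genes rose with Dex, 2 fell and 14 did not pass, and with both drugs 1 passed. These were 17.6% called beside 51.6% of all genes with Dex, and 5.88% beside 49.7% with both drugs. The catalytic genes Atp5a1 and Atp5b had the highest counts among nuclear members. Atp5b measured 91049 and 95816 normalised counts in untreated cells, 97613 and 93847 with Dex, and 96457 and 98777 with both drugs (log2 0.04 ± 0.05 with Dex, adjusted p = 0.555). Atp5a1 stood between 53504 and 57971 in the 6 libraries (0.07 ± 0.04, adjusted p = 0.216). Per kilobase, Atp5b was also the highest nuclear member in untreated cells, at 48764 against a median of 5829 for the 91 genes. Atp5h, a subunit of the peripheral stalk, rose with Dex from 8053 and 8329 to 9870 and 9074 (0.21 ± 0.05, adjusted p = 0.00865). Atp5j, another stalk subunit, was called with both drugs, at 6758 and 6226 in untreated cells against 7247 and 7567 (0.19 ± 0.06, adjusted p = 0.0295). Atp5s, coupling factor B, fell with Dex from 537.9 and 439.4 to 375 and 391.9 (-0.35 ± 0.11, adjusted p = 0.0202).
The c subunit, which forms the rotating ring, is made from 3 genes for the same mature protein. Atp5g3 held between 64.6% and 72.3% of their summed level per kilobase, Atp5g2 between 19.4% and 26.3%, and Atp5g1 between 7.63% and 9.59%. Atp5g1 fell with Dex from 1753 and 1941 to 1704 and 1478 (-0.21 ± 0.08, adjusted p = 0.0375), while Atp5g2 (-0.26 ± 0.10, adjusted p = 0.0654) and Atp5g3 (0.13 ± 0.07, adjusted p = 0.12) did not pass. These calls were weak. That of Atp5g1 was lost without untreated replicate 2, Dex replicate 2 or either library of both drugs (adjusted p from 0.0589 to 0.242; 0.00344 to 0.383 over its alternatives), under total count scaling (0.383) and in a fit of the 4 libraries compared (0.0608), and that of Atp5h without untreated replicate 1 (0.0547; 0.000113 to 0.0547). The call of Atp5s was lost without untreated replicate 1 or Dex replicate 1 (0.0654 to 0.193; 0.00419 to 0.193 over its alternatives) or under total count scaling (0.108), and that of Atp5j without untreated replicate 2 or either library of both drugs (0.0651 to 0.185; 0.000757 to 0.185).

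**Figure D3:**
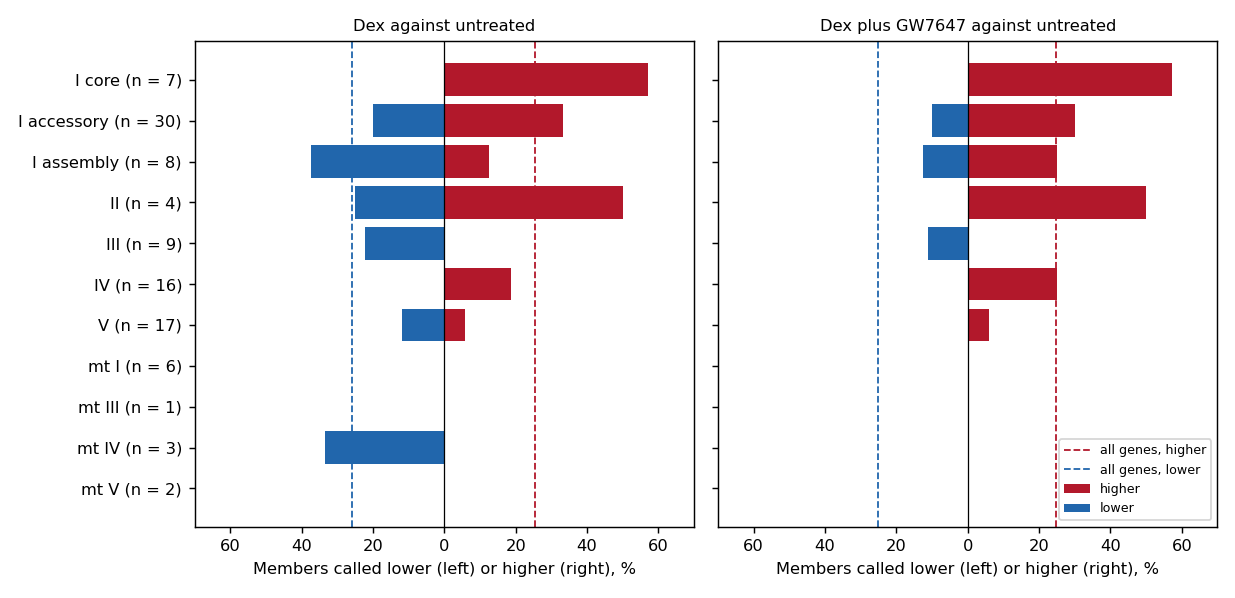
Share of the members of each complex called higher (to the right) or lower (to the left) in both comparisons with untreated cells, with the number of members in brackets; dashed lines mark the shares of all genes tested, 25.5% higher and 26% lower with Dex and 24.7% and 25.1% with both drugs. With Dex, the core and accessory subunits of complex I and complex II pass the line for higher calls, and complex V lies inside both lines in both comparisons. The complex I assembly factors (3 of 8) and the mitochondrial genes of complex IV (1 of 3) pass the line for lower calls with Dex. The higher calls of complex IV include Ndufa4l2 and Cox7a1, which had to differ to be counted.

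The mitochondrially encoded genes stood apart in 1 library, Dex replicate 1. Together the 12 genes took 2.69% and 2.39% of all counts in untreated libraries, 1.67% and 2.64% with Dex, and 2.53% and 2.82% with both drugs. The 91 nuclear genes took 1.396% and 1.43%, 1.64% and 1.56%, and 1.62% and 1.59% in the same order, and exact 95% binomial intervals of these shares, which cover counting error only, were at most 0.011 percentage points wide. The ratio of mitochondrial to nuclear counts was 1.92 and 1.67, then 1.02 and 1.69, then 1.57 and 1.77, so that Dex replicate 1 lay far below the other 5 libraries and Dex replicate 2 among them. Each of the 12 genes had its lowest normalised count in Dex replicate 1. Of the 91 nuclear genes 12 were lowest and 35 highest in that library. The shares were not tested. The part of Dex replicate 1 in the results that follow is given by the values without it.

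**Figure D4:**
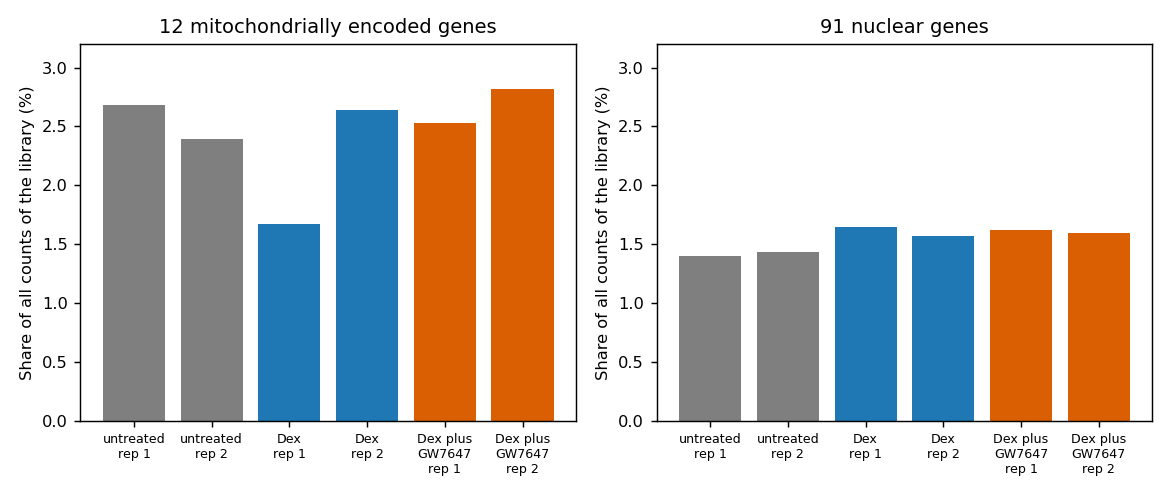
Share of all counts of each library (vertical axes, %, bars from 0) taken by the 12 mitochondrially encoded genes (left) and the 91 nuclear genes (right). Dex replicate 1 has the shortest mitochondrial bar at 1.67%, the remaining 5 bars run from 2.39% to 2.82%, and the nuclear bars run from 1.396% to 1.64%.

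With Dex against untreated all 12 mitochondrial genes had log2 differences below 0, with a median of -0.36 beside 0.01 for all genes, and 1 was called. When GW7647 was added all 12 lay above 0, with a median of 0.38 beside 0.00, and none was called, none had an unadjusted edgeR p under 0.05 and DESeq2 called 0. Both comparisons use the Dex libraries. With both drugs against untreated the median was 0.03, 7 genes were above 0 and 5 below, and again 0 were called by edgeR or DESeq2 and 0 had an unadjusted p under 0.05. The median standard error of a mitochondrial gene was 0.19 where that of a nuclear gene was 0.06. Without Dex replicate 1 the medians were 0.0041 for Dex against untreated, with 0 called, and 0.00829 for the addition of GW7647, with 0 called. Without Dex replicate 2 they were -0.828, with all 12 called lower, and 0.859, with all 12 called higher. Without a filter on low counts, 11 were called lower with Dex and 12 higher when GW7647 was added.

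mt-Co1, the catalytic subunit of complex IV, was the mitochondrial gene called with Dex. It measured 454744 and 415628 normalised counts in untreated cells, 259120 and 390185 with Dex, and 371206 and 414649 with both drugs (mt-Co1 log2 -0.42 ± 0.15, adjusted p = 0.0355). Both Dex libraries lay below both untreated ones, Dex replicate 1 far below. The call was lost without Dex replicate 1 or either untreated library (adjusted p from 0.0509 to 0.141; 2.03e-21 to 0.167 over its alternatives), under total count scaling (0.106) and by DESeq2 (0.167). mt-Co2 and mt-Co3, the other core subunits of complex IV, measured 201086 and 180267 against 130136 and 179193 with Dex, and 150996 and 132711 against 88616 and 136396. Neither passed (adjusted p = 0.0578 and 0.0987). mt-Cytb, the only mitochondrial gene of complex III, measured 107299 and 93510 in untreated cells, 55968 and 99234 with Dex and 98050 and 112238 with both drugs.

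The mitochondrial genes of complex I followed the same pattern, each lowest in Dex replicate 1 and near the other libraries in Dex replicate 2. mt-Nd1 measured 90074 and 81992 in untreated cells, 52436 and 88830 with Dex, and 85664 and 98027 with both drugs. mt-Nd4 measured 62758 and 57018, then 32716 and 62086, then 56837 and 67807, and mt-Nd5 51037 and 42895, then 25804 and 47656, then 44360 and 51370. mt-Nd6, the member read from the other strand of mitochondrial DNA and overlapping mt-Nd5, measured 14994 and 14335, then 8518 and 14254, then 13013 and 14424. The genes did not drop by the same factor. In Dex replicate 1 the log2 distance from the untreated mean ran from -0.50 for mt-Nd3 to -1.72 for mt-Atp8, with a median of -0.81, while in Dex replicate 2 it ran from -0.16 to 0.26. mt-Atp6, a proton channel subunit of complex V, measured 25173 and 23973 in untreated cells, 9695 and 23712 with Dex and 21031 and 26588 with both drugs. mt-Atp8, which shares exon bases with mt-Atp6, was also uneven between the untreated libraries, at 9537 and 4446.

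**Figure D5:**
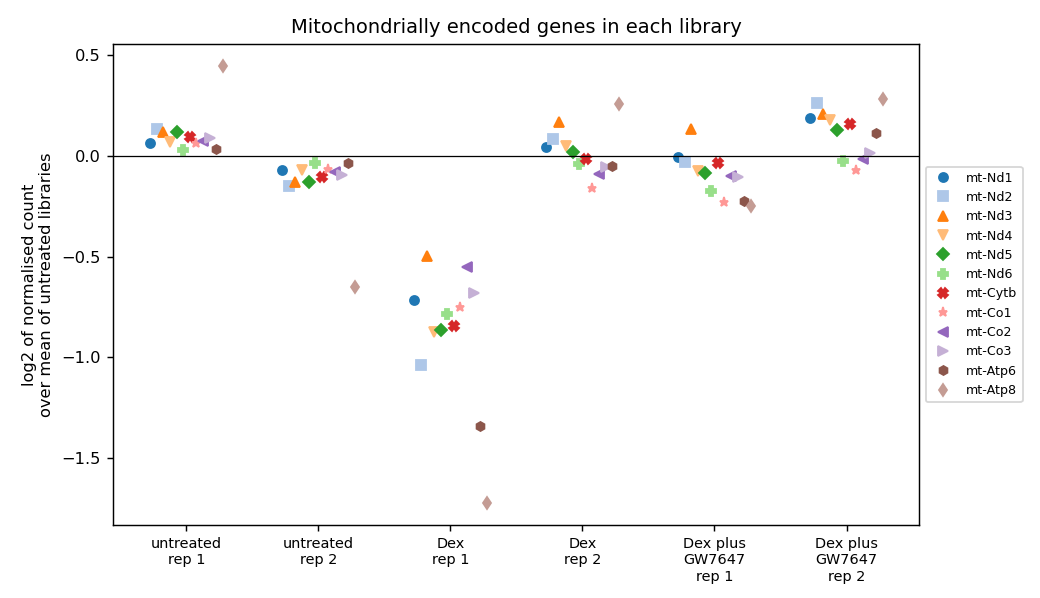
Log2 ratio of the normalised count of each mitochondrially encoded gene to its mean in the untreated libraries (vertical axis), in each of the 6 libraries (horizontal axis), with 1 symbol per gene. All 12 genes are at or below -0.50 in Dex replicate 1, and the median is between -0.09 and 0.15 in each of the other libraries.

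The proportions among the 12 genes varied most, relative to their size, for mt-Atp8, the least abundant. mt-Atp8 ran from 0.303% of the mitochondrial counts in Dex replicate 1 to 0.773% in untreated replicate 1. mt-Nd6, also among the least abundant, stayed between 1.205% and 1.302%, while the more abundant mt-Nd2 ran from 3.08% to 4.43%. mt-Co1 held between 34.65% and 37.74% of the mitochondrial counts in every library, mt-Co2 between 15.75% and 18.64%, mt-Co3 between 12.0% and 12.7%, and mt-Cytb between 8.02% and 9.38%. The highest share of mt-Co2 and the lowest of mt-Atp6, 1.39% against 1.97% to 2.22% elsewhere, were those of Dex replicate 1. Per kilobase in untreated cells, mt-Co1 stood at 281674 and mt-Nd5, the lowest of the 12, at 25749, still above the nuclear median of 5829.

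Genes that serve the chain from outside it were read from lists of their own. Of 39 tested assembly factors for complexes II to V and further factors of complex I, 12 rose with Dex, 6 fell and 21 did not pass, and with both drugs 14 rose and 4 fell. The 46.2% called in each comparison with untreated cells compares with 51.6% of all genes with Dex and 49.7% with both drugs. Cox16, of complex IV assembly, had the largest called rise, from 721 and 792 to 1176 and 1031 with Dex (log2 0.55). Cox17, the copper chaperone of complex IV, rose from 7700 and 7816 to 11090 and 9333. Uqcc3, of complex III assembly, fell from 315.4 and 360.8 to 231.5 and 224.1 with Dex and to 189.5 and 196 with both drugs. Atpaf1, a chaperone of the ATP synthase head, fell from 423 and 415.1 to 290.1 and 325.35 with Dex.

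In the list of cytochrome c and coenzyme Q synthesis, 4 of 15 genes rose with Dex and 2 fell, 40% in all where 51.6% of all genes were called. Coq8a, a kinase-like protein of coenzyme Q synthesis, had the largest change, from 47.7 and 71.7 to 137 and 109 with Dex (log2 1.04). Hccs, which attaches heme to cytochromes c and c1, rose from 2400 and 2388 to 3011 and 3030 with Dex (log2 0.34, adjusted p = 0.000164), while Cycs, cytochrome c itself, stayed between 6400 and 7604 in all libraries. Coq3, a methyltransferase of coenzyme Q synthesis, fell from 694.4 and 691.5 to 373.45 and 420.05 with Dex and stood at 530.7 and 494.85 with both drugs. It fell by 0.81 on the log2 scale with Dex (adjusted p = 2.69e-05) and rose by 0.38 when GW7647 was added (adjusted p = 0.0211), both libraries of both drugs lying between the Dex and the untreated ones. Coq3 was the 1 gene of these 15 called when GW7647 was added, where 9.73% of all genes were called. Its calls were not followed under the alternatives. In the citric acid cycle 3 of 13 genes rose with Dex, Cs, Idh3a and Sucla2, with log2 differences between 0.22 and 0.31, and 10 did not pass, so that 23.1% were called beside the same background.

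Genes for upkeep and expression of mitochondrial DNA were mostly steady: 3 of 24 rose with Dex, 3 fell and 18 did not pass, 25% called beside 51.6% of all genes. Polg, the mitochondrial DNA polymerase, rose from 4193 and 4247 to 6353 and 5936 with Dex and 6014 and 6111 with both drugs, and Polrmt, the mitochondrial RNA polymerase, from 1367 and 1541 to 1916 and 1717. Tfb1m, a methyltransferase of the mitochondrial small ribosomal RNA, fell from 673.6 and 691.5 to 487.6 and 484.7 with Dex and was higher again when GW7647 was added, at 609.25 and 566.9 (adjusted p = 0.0417). Tfb1m was the 1 gene of these 24 called for that addition, beside 9.73% of all genes, and its calls were not followed under the alternatives. Tfam, which packages mitochondrial DNA, stayed between 3555 and 3796.

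Of 9 tested nuclear regulators of respiratory genes, 6 fell with Dex, 1 rose and 2 did not pass, with a median log2 difference of -0.42 beside 0.01 for all genes tested and 77.8% called beside 51.6%. Nrf1 fell from 3320 and 3145 to 2406 and 2400 with Dex and stood at 2554 and 2616 with both drugs (log2 -0.43, adjusted p = 5.13e-05). Gabpb1, a partner subunit of GABPA, fell from 2127 and 2047 to 1582 and 1532. Among the coactivators, Pprc1 fell from 5006 and 5126 to 3471 and 3309, Ppargc1b from 259.2 and 289.1 to 206 and 179.1, and Perm1 from 160.2 and 182.7 to 62.5 and 47.8 (log2 -1.62, adjusted p = 3.20e-05). Hcfc1 fell by 0.23 on the log2 scale. Esrra, the estrogen-related receptor alpha, rose from 865.55 and 907.7 to 1229 and 1195 with Dex and 1254 and 1353.5 with both drugs (log2 0.45, adjusted p = 0.000226). Gabpa and Yy1 did not pass. Ppargc1a had 1 count and Ppara, the receptor that GW7647 binds, had 3 counts over all 6 libraries.

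Ucp2, an uncoupling protein homologue of the inner membrane, went from 40318 and 44049 to 29049 and 29161 with Dex and 26840 and 28011 with both drugs (log2 -0.54, adjusted p = 1.78e-05). Atpif1, which encodes the inhibitor of ATP synthase, fell from 18924 and 18392 to 14715 and 14780 with Dex and 15472 and 15010 with both drugs (log2 -0.34, adjusted p = 0.000128). The adenine nucleotide carriers Slc25a4 and Slc25a5 did not pass in any comparison, and Ucp1 and Ucp3 had 0 and 12 counts over all libraries.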

How the data were processed

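PolyA RNA of 6 libraries in 3 groups of 2 was sequenced. The authors deposited raw counts per Ensembl gene in 2 tables, and the libraries with both drugs are in both with identical values. Per the submitters' processing notes TopHat 1.4.1, HTSeq and DESeq were used with builds mm9 and NCBIM37; a strand setting for counting is not given in the sources used here. No column of values was left unmatched to a sample. Symbols were taken from GENCODE M21 for 32897 of 37620 genes (87.45%), and transcript lengths, used per kilobase, from the same later annotation.

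From the deposited counts, edgeR 4.0.16 (R 4.3.3) fitted all 6 libraries with TMM scaling, its low-count filter at a minimum count of 10 (14125 genes, 99.971% of counts) and the quasi-likelihood test. P-values were adjusted by Benjamini-Hochberg across all tested genes, with a threshold of 0.05. All adjusted p-values are from this fit unless another is named. Normalised counts are counts divided by the scaled library size, times the mean of these sizes. The script was tested on simulated data. DESeq2 1.42.0, other scalings, no filter, a replicate block, the 4 libraries compared and leaving out each library were the alternatives.

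Members and gene lists were chosen with earlier results of these data known. Values per library are given for the called member with the largest rise and fall in each complex and comparison, called mitochondrial genes, isoform pairs, the subunits of complex II, and several catalytic or core genes, and for the called gene of largest change in each list. Further genes were chosen after their values were seen. Genomic coordinates are those of the RefSeq start sites only. The values of 1 member are not reported here.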

Additional observations from a re-analysis of the deposited data

How the results depend on the processing

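Scaling by total counts gave 49 higher and 4 lower nuclear calls with Dex (median log2 0.19), 0 mitochondrial genes lower, 0 nuclear genes higher when GW7647 was added to Dex, and 45 nuclear genes higher with both drugs against untreated (median 0.186). Without a low-count filter, 36 nuclear genes were higher and 11 mitochondrial genes lower with Dex. In that setting 3 nuclear genes were higher, 4 lower and 12 mitochondrial genes higher when GW7647 was added, and 3 mitochondrial genes were higher and 1 lower with both drugs against untreated. DESeq2 called 0 mitochondrial genes lower with Dex and 0 nuclear genes lower when GW7647 was added. A fit of only the 4 libraries compared gave 2 nuclear genes lower when GW7647 was added, and 13 nuclear and 1 mitochondrial lower with both drugs against untreated. The cause of these shifts was not tested.

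The libraries share replicate numbers across groups, but the labels do not say that these pair them. The correlation of same-numbered deviations over 14125 genes was -0.212 between untreated and Dex, -0.0461 between untreated and both drugs, and 0.149 between Dex and both drugs. A replicate block gave 18 higher and 13 lower nuclear calls with Dex and 0 nuclear genes lower when GW7647 was added. Among the calls named by rule it lost Cyc1 (adjusted p = 0.0804) and Ndufa4l2 (0.0675) for GW7647 added to Dex. It also lost Ndufv1 (0.0638), Sdha (0.073) and Atp5g1 (0.062) with Dex, and Ndufv1 (0.0567) and Atp5j (0.0518) with both drugs against untreated.

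Leaving out 1 library at a time gave, for Dex against untreated, 17 to 28 nuclear genes higher, 10 to 18 lower and a median of 0.0291 to 0.0884, and 0 to 12 mitochondrial genes lower with a median of -0.828 to 0.0041. For GW7647 added to Dex it gave 0 to 2 nuclear genes higher, 0 to 3 lower and a median of -0.0104 to 0.0325, and 0 to 12 mitochondrial genes higher with a median of 0.00829 to 0.859. For both drugs against untreated it gave 14 to 27 nuclear genes higher, 4 to 11 lower and a median of 0.039 to 0.0922, and 0 to 1 mitochondrial genes lower with a median of -0.0885 to 0.147. Of 37 calls of genes named by rule, 21 held in all 12 alternatives. Both counts include the calls of Ndufa4l2 and Cox7a1 against untreated cells. Those genes had to differ to be counted, so their calls say nothing of how firm the others are. With 2 libraries a group, the spread is poorly estimated whatever the depth.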
